A study of Mus musculus with 8 samples.

Results

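The heat-shock chaperones described here are 10 of the 18860 genes with a value in every library of a mouse acute myeloid leukaemia study. They were taken by gene symbol from a named list. Hspa1a and Hspa1b encode the stress-inducible cytosolic HSP70. The other 8 are Dnajb1, Hsph1, Hspa8, Hsp90aa1, Hsp90ab1, Hspd1, Hspe1 and Hspb1, which range from constitutive to partly inducible. The inducible HSP70 copies were set against the rest across the 2 genotypes and the 8 libraries.

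Chaperones bind unfolded or partly folded proteins and help them reach or regain their shape. HSP70 proteins grip short exposed stretches in a cycle driven by ATP, in which J-domain proteins deliver the client and exchange factors such as HSP110 release it, while HSP90 acts later on kinases, transcription factors and other clients, mutant p53 among them. Under proteotoxic stress the transcription factor HSF1 binds heat shock elements, inverted repeats of the letters nGAAn, and drives the inducible copies strongly from a low resting level.

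Total RNA was sequenced from leukaemia cells of C57BL/6 mice, taken from bone marrow once the animals were moribund. The 11B3-deleted group has the genotype 11B3fl/p53fl;shNf1;shMll3;Vav1-Cre (4 libraries), so that the 11B3 segment, which includes Trp53, is lost from 1 copy of chromosome 11 and Trp53 alone from the other. The p53-loss-only group has the genotype p53fl/fl;shNf1;shMll3;Vav1-Cre (4 libraries). Both groups therefore carry hairpins against Nf1 and Mll3, Cre driven by Vav1 in blood-forming cells, and loss of Trp53. The sources used here give no age. Whether the 4 lines of a cohort stem from 4 mice is not stated, so the p-values cover spread among libraries that may in part be technical. None of the 10 chaperone genes lies on chromosome 11, the chromosome that carries the deletion.

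Recovered depth was 30591456 to 35719495 reads in the 11B3-deleted libraries and 30502718 to 33365364 reads in the p53-loss-only libraries. Unless a sentence says otherwise, values are as deposited, that is, reads divided by a size factor with 1 added, and 4 values of a group follow replicates 1 to 4. Trp53 transcripts were at 392.5, 387.3, 266.6 and 189.2 across the 11B3-deleted libraries, against 425.3, 577.1, 367.2 and 300.2 across the p53-loss-only libraries. Those ranges overlap, and both groups were built to lose the gene, so it is no check of the labels. All 14 myeloid markers had a row and none was at 0 reads throughout, and 12 had a lower and 2 a higher 11B3-deleted mean. Their summed values were 303021 to 1011080 in the 11B3-deleted libraries and 459933 to 734445 in the p53-loss-only libraries.

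The upstream sequences are shown first because HSF1, which sets inducible chaperone genes apart, acts there. Each is taken from RefSeq on the mouse build GRCm38.p6, reads 5′ to 3′ on the strand of the gene, and has in capitals every match to GAANNTTC or TTCNNGAA, the inverted repeats of a heat shock element. Each of these motifs is its own reverse complement, so a match lies on both strands, and the motifs can overlap each other. For Hspa1a (chr17:34972157-34972306, minus strand), Hspa1b (chr17:34959239-34959388, minus strand) and Hspb1 (chr5:135887769-135887918, plus strand) the whole stretch of 150 bases before the transcript start is given.
Hspa1a: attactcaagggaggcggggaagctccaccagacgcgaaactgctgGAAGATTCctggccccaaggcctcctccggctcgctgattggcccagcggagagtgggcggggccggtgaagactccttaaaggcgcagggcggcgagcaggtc
Hspa1b: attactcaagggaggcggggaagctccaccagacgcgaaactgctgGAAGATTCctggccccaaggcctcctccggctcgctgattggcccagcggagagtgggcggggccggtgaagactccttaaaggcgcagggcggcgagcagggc
Hspb1: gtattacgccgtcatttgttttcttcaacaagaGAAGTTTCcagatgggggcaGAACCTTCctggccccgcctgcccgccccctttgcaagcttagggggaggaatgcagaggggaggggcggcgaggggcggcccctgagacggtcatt

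The upstream stretches of Hspa1a and Hspa1b were identical in 149 of 150 bases, with the same match beginning at position -104 from each start. The copies thus differ in 1 base of this stretch, outside the match. Hspb1, the small heat-shock protein Hsp25 of the mouse, held 2 matches.

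The mitochondrial chaperonin genes Hspe1 and Hspd1 lie head to head on chromosome 1, and a stretch that they share held 3 matches, the most in any window of the 7 chaperone genes with an entry in the promoter table. A second window of Hspd1, at another annotated start, held 0. Annotated exons cover all 150 bases of the Hspe1 window and of both Hspd1 windows, and part of the Hsph1 windows. For these genes 30 bases round the matches are given instead of 150. The same 30 bases (chr1:55088053-55088082) are given as read by each gene, on the plus strand for Hspe1 and on the minus strand for Hspd1, followed by 30 bases of Hsph1 (chr5:149636351-149636380, minus strand).
Hspe1: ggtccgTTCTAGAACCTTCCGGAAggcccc
Hspd1: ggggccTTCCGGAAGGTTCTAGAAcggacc
Hsph1: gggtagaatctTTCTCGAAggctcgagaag

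The run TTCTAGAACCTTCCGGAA is 18 bases long, contains 3 overlapping matches and begins at position -89 from the Hspe1 start. Dnajb1 had no match in either of its 2 windows of 150 bases, which says only that these letters are not in those windows. Of the 7 genes with an entry, 6 held at least 1 match, as did 7 of their 10 windows. Some of these windows repeat the same letters. Hspa1a and Hspa1b are near-identical, Hspe1 and Hspd1 share a stretch, and the Hsph1 windows overlap and hold the same match. Over all 32851 promoter windows of the table the share with a match was 7.73%, and 15 of them (0.0457%) held 3 or more matches. Those 15 include 2 windows of the chaperones, the Hspe1 and Hspd1 windows with the shared stretch. A match is a description of letters and not a measured binding site.

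Between genotypes, no chaperone passed the test, and the inducible pair was the part of the group with the lowest 11B3-deleted levels relative to p53-loss-only. All 10 genes passed the filter on low values (10 or more in 4 or more libraries), as did 14679 genes in all. With limma on log2 values and Benjamini-Hochberg adjustment over those genes, 0 of 10 chaperones had an adjusted p under 0.05, against a background of 0.0136%, or 2 genes. At an unadjusted p under 0.05, limma gave 1 chaperone lower in the 11B3-deleted leukaemias, Hspa1a, where the background was 2.38%, and 0 higher, where it was 1.18% (3.56% in either direction). The count was also 0 of 10 with edgeR (background 0.00681%) and with DESeq2 (background 0.395%) at an adjusted p under 0.05. At an unadjusted p under 0.05, edgeR gave 0 of 10, against a background of 2.54% lower and 1.58% higher. DESeq2 gave 1 lower, Hspa1b, against a background of 3.01% lower and 2.4% higher. The groups overlapped in all 10 genes, while 2.15% of all tested genes had groups that did not overlap (1.23% lower and 0.913% higher). The median log2 difference was -1.91 for Hspa1a and Hspa1b, 0.34 for the other 8, and 0.01 over all genes tested.

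**Figure D1:**
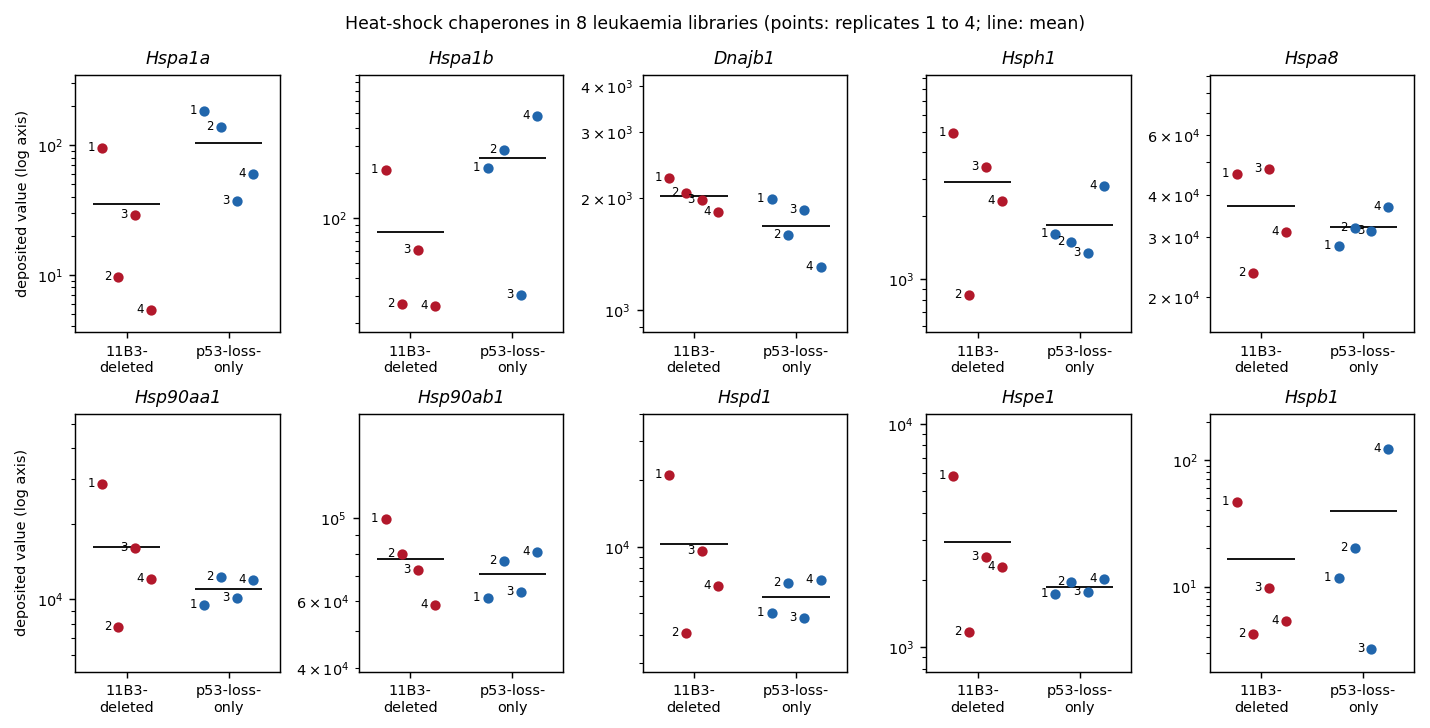
Deposited value of each of the 10 chaperone genes on a log axis, with 11B3-deleted libraries in red and p53-loss-only libraries in blue; points are numbered by replicate and the line is the arithmetic mean of 4. Hspa1a runs between 5.4 and 95.7 and Hspa1b between 25.9 and 208 in the 11B3-deleted libraries, and the groups overlap in every panel.

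Hspa1a, the first of the 2 inducible HSP70 copies, was at 95.7, 9.6, 29.1 and 5.4 across the 11B3-deleted libraries, against 184.5, 137.7, 37.2 and 59.6 across the p53-loss-only libraries. Replicates 2 and 4 of the 11B3-deleted group were the lowest of all 8, and 11B3-deleted replicate 1 lay above p53-loss-only replicates 3 and 4. Means were 35.0 ± 41.8 in the 11B3-deleted leukaemias and 105 ± 68.4 in the p53-loss-only leukaemias (SD, n = 4 each). The log2 difference was -2.15 (SE 0.91, 95% interval -4.20 to -0.09, limma adjusted p = 0.996). On the log scale this places the 11B3-deleted level at 22.6% of the p53-loss-only level, a difference that did not pass the test over all genes. With the recovered reads the log2 difference was smaller, -1.63 with edgeR (unadjusted p = 0.111) and -1.61 with DESeq2 (unadjusted p = 0.0726). The lowest libraries rest on few reads, 8 in 11B3-deleted replicate 2 (exact 95% Poisson interval 3.45 to 15.8) and 5 in 11B3-deleted replicate 4 (1.62 to 11.7), and these intervals cover counting error only.

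Hspa1b, the second inducible copy, was at 208, 26.8, 61.1 and 25.9 across the 11B3-deleted libraries, against 216.6, 282.6, 30.6 and 474.9 across the p53-loss-only libraries. Replicates 1, 2 and 4 of the p53-loss-only group exceeded every 11B3-deleted library, and its replicate 3 sat among the lowest. Means were 80.4 ± 86.6 for 11B3-deleted and 251 ± 183 for p53-loss-only leukaemias (SD, n = 4 each). The log2 difference was -1.66 (SE 0.94, 95% interval -3.80 to 0.47, limma adjusted p = 0.996). With DESeq2 on the recovered reads Hspa1b was the chaperone with the smallest unadjusted p, 0.04997, and Hspa1a had 0.0726, with DESeq2 adjusted p of 0.863 and 0.912. With single libraries left out, the log2 difference ran from -2.91 (without 11B3-deleted replicate 1) to -1.53 (without 11B3-deleted replicate 4) for Hspa1a. For Hspa1b it ran from -2.50 (without p53-loss-only replicate 3) to -1.18 (without p53-loss-only replicate 4).

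The 2 copies share most of their sequence, so the split of reads between them is uncertain. Of all 50-base windows of the Hspa1a transcript, 58.8% also occur in Hspa1b, and 62.3% of those of Hspa1b occur in Hspa1a. The sources used here do not say how such reads were counted. Summed over both copies, scaled reads were 301.7, 34.4, 88.2 and 29.3 across the 11B3-deleted libraries, against 399.1, 418.3, 65.8 and 532.4 across the p53-loss-only libraries. The sum thus had the same layout as Hspa1b alone, with 3 high p53-loss-only libraries, replicate 3 low, and replicate 1 the high library of the 11B3-deleted group. Hspa1a made up 31.4%, 25%, 31.9% and 15.2% of the summed reads in the 11B3-deleted libraries and 46.0%, 32.7%, 55.0% and 11.0% in the p53-loss-only libraries.

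Dnajb1 encodes the stress-responsive J-domain protein that brings clients to HSP70. It was at 2257.2, 2058.6, 1971.5 and 1831.1 across the 11B3-deleted libraries, against 1989.6, 1589.0, 1851.9 and 1307.6 across the p53-loss-only libraries. All 8 values lay within a factor of 1.73, and the log2 difference was 0.28 (SE 0.17, 95% interval -0.11 to 0.67, limma adjusted p = 0.996). Dnajb1 was at its lowest, 1307.6, in p53-loss-only replicate 4, the library in which Hspa1b was at its highest.

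Hsph1 encodes an HSP110 that releases nucleotide, and with it the client, from HSP70. Its values were 4922.6, 841.5, 3419.6 and 2365.4 across the 11B3-deleted libraries, against 1636.2, 1511.1, 1336.6 and 2785.7 across the p53-loss-only libraries. Both the highest and the lowest library belonged to the 11B3-deleted group, a span of 5.85-fold. The log2 difference was 0.47 (SE 0.50, 95% interval -0.67 to 1.60).

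Hspa8, the constitutive cytosolic HSC70, was at 46107.1, 23534.9, 47752.2 and 31047.0 across the 11B3-deleted libraries, against 28201.3, 31842.6, 31326.4 and 36937.0 across the p53-loss-only libraries. The p53-loss-only values lay inside the range of the 11B3-deleted values. The log2 difference was 0.16 (SE 0.25, 95% interval -0.40 to 0.72). Hspa8 has many processed copies in the genome, and 70.0% of its 50-base windows also occur in the copy Gm15459, so its reads too may be split.

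HSP90 is made in the cytosol from a constitutive and a more inducible gene. Hsp90ab1, the constitutive HSP90 beta, was at 99421.3, 80283.6, 72509.3 and 58578.4 across the 11B3-deleted libraries, against 61281.0, 76999.6, 63464.2 and 81358.1 across the p53-loss-only libraries. It varied by a factor of 1.70 over all libraries, the smallest span of the 10 genes, and its log2 difference was 0.12 (SE 0.22, 95% interval -0.37 to 0.61). Hsp90aa1, the more inducible HSP90 alpha, was at 28798.2, 7725.5, 16047.3 and 12052.9 across the 11B3-deleted libraries, against 9509.2, 12283.3, 10149.3 and 11921.5 across the p53-loss-only libraries. Its span was 3.73-fold, set by 11B3-deleted replicates 1 and 2, and its log2 difference was 0.40 (SE 0.35, 95% interval -0.39 to 1.20). Of its 50-base windows, 51.5% also occur in Gm12346, against at most 1.70% for Hsp90ab1 in any other gene.

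Hspd1 (HSP60) and Hspe1 (HSP10) form the chaperonin that folds proteins in the mitochondrial matrix. Hspd1 was at 21054.1, 4090.3, 9537.7 and 6652.2 across the 11B3-deleted libraries, against 5012.4, 6847.7, 4763.2 and 7094.3 across the p53-loss-only libraries, with a log2 difference of 0.56 (SE 0.44, 95% interval -0.43 to 1.55). Hspe1 was at 5829.6, 1163.2, 2538.6 and 2272.2 across the 11B3-deleted libraries, against 1730.4, 1956.9, 1765.3 and 2013.7 across the p53-loss-only libraries, with a log2 difference of 0.43 (SE 0.41, 95% interval -0.50 to 1.35). Both genes had their highest and their lowest library within the 11B3-deleted group, replicates 1 and 2, as Hsph1 and Hsp90aa1 did. The positive differences of Hspd1, Hspe1, Hsp90aa1 and Hsph1 depended on 11B3-deleted replicates 1 and 2, in opposite directions. Without replicate 1 the log2 difference was 0.13 for Hspd1, 0.018 for Hspe1, 0.068 for Hsp90aa1 and 0.12 for Hsph1. Without replicate 2 it was 0.92 for Hspd1, 0.79 for Hspe1, 0.70 for Hsp90aa1 and 0.97 for Hsph1. Hspa8, at 0.16 with all libraries, was at 0.033, 0.36 and 0.017 without 11B3-deleted replicates 1, 2 and 3 in turn. Of the 50-base windows of Hspd1, 42.8% also occur in Hspd1-ps3, and 35.2% of those of Hspe1 occur in AC117239.2. Reads of these genes too may be split. The ratio of Hspd1 to Hspe1 scaled reads stayed between 2.70 and 3.76 in all 8 libraries. It averaged 3.45 ± 0.36 in the 11B3-deleted leukaemias and 3.16 ± 0.42 in the p53-loss-only leukaemias (SD, n = 4 each), while over the 8 libraries Hspd1 alone spanned 5.15-fold and Hspe1 alone 5.01-fold.

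Hspb1, a small heat-shock protein that holds unfolded proteins without ATP, was close to the limit of detection in several libraries. Its values were 46.9, 4.2, 9.7 and 5.4 across the 11B3-deleted libraries, against 11.7, 20.3, 3.2 and 121.3 across the p53-loss-only libraries. The highest library was p53-loss-only replicate 4, with 113 reads, and the lowest was p53-loss-only replicate 3, with 2 reads. Of the 50-base windows of Hspb1, 51.65% also occur in Hsp25-ps1, so its reads may be split. The log2 difference was -0.78 (SE 1.13, 95% interval -3.35 to 1.78), too wide to place the level of either genotype above the other.

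**Figure D2:**
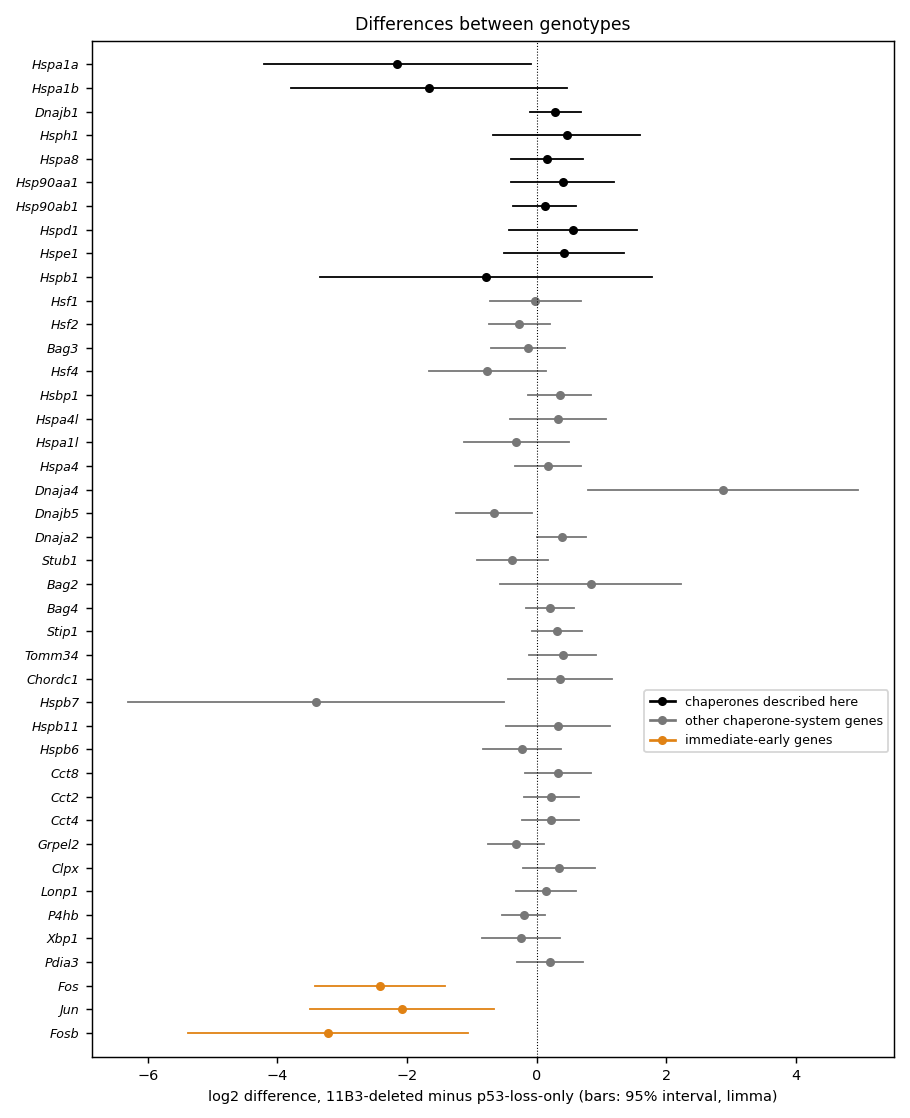
Log2 difference, 11B3-deleted minus p53-loss-only, on the horizontal axis for the 10 chaperones (black), other genes of the chaperone system (grey) and immediate-early genes (orange), with 95% intervals from limma. Hspa1a at -2.15 and Hspa1b at -1.66 lie left of the other 8 chaperones, which are between -0.78 and 0.56.

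Set against the other chaperones within each library, the inducible copies were lower in the 11B3-deleted group on average, although the groups overlapped. The log2 of the summed Hspa1a and Hspa1b scaled reads minus the mean log2 value of the other 8 was -4.60, -5.94, -5.54 and -6.66 in 11B3-deleted replicates 1 to 4. It was -2.87, -3.04, -5.20 and -3.13 in p53-loss-only replicates 1 to 4. Only p53-loss-only replicate 3 lay among the 11B3-deleted libraries. The means were -5.69 ± 0.86 for 11B3-deleted and -3.56 ± 1.10 for p53-loss-only leukaemias (SD, n = 4 each), a difference of -2.13. All 8 count equally in that mean, Hspb1 with its few reads among them. Against Hspa8, Hsp90ab1, Hspd1 and Hspe1 alone, a set without Hspb1, the difference was -2.24. No p is given for these scores, since the members were chosen with earlier results of these data known.

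**Figure D3:**
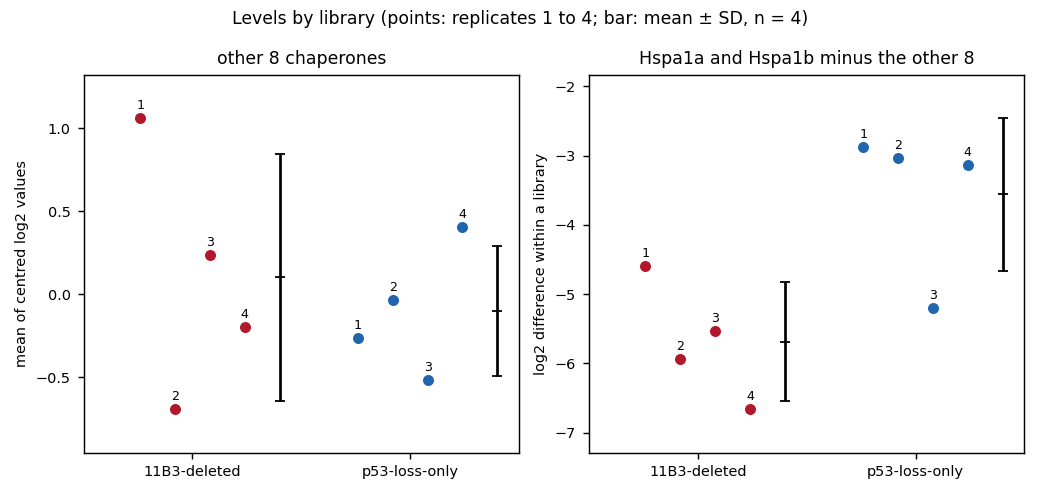
Left, mean of the centred log2 values of the 8 chaperones other than Hspa1a and Hspa1b in each library, with Hspb1 counted as much as the others. Right, log2 of the summed Hspa1a and Hspa1b reads minus the mean log2 value of those 8 (bars: mean ± SD of 4 libraries). On the right, 3 p53-loss-only libraries lie between -3.13 and -2.87 and the other at -5.20, among the 11B3-deleted libraries.

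The constitutive member of the HSP70 family outweighed the inducible copies in every library. Per kilobase of exon, Hspa8 exceeded the sum of Hspa1a and Hspa1b 101-fold, 452-fold, 359-fold and 697-fold in 11B3-deleted replicates 1 to 4. The excess was 47.3-fold, 50.5-fold, 320-fold and 45.5-fold in p53-loss-only replicates 1 to 4. The excess was smallest in 3 p53-loss-only libraries, and p53-loss-only replicate 3 again lay within the 11B3-deleted range. These folds take no account of 50-base windows that also occur in other genes, 74.8% for Hspa8, 66.3% for Hspa1a and 62.3% for Hspa1b.

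By level per length, averaged over the 8 libraries, the order ran from Hsp90ab1 through Hspa8, Hsp90aa1, Hspd1, Hspe1, Dnajb1, Hsph1, Hspa1b and Hspb1 to Hspa1a. It takes no account of 50-base windows that also occur in other genes. These were 74.8% for Hspa8, 66.3% for Hspa1a and 58.5% for Hsp90aa1, against 4.49% for Hsp90ab1 and 0% for Hsph1. How such reads were counted is not stated, so the order of genes, Hsp90ab1 above Hspa8 included, may depend on it. Hsp90ab1 averaged 25908 ± 5682 scaled reads per kilobase for 11B3-deleted and 23599 ± 3303 for p53-loss-only leukaemias, and Hspa8 averaged 8628 ± 2735 for 11B3-deleted and 7458 ± 841 for p53-loss-only leukaemias (SD, n = 4 each). At the other end Hspa1a averaged 11.4 ± 14.1 scaled reads per kilobase for 11B3-deleted and 35.0 ± 23.1 for p53-loss-only leukaemias (SD, n = 4 each). The ranges over 8 libraries of neighbours in this order were apart only for Hsp90ab1 above Hspa8 and for Hspe1 above Dnajb1. Within single libraries the order still held in 8 of 8 for most neighbours. The exceptions were Hsp90aa1 above Hspd1, in 7 of 8, and Hspb1 above Hspa1a, in 4 of 8.

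**Figure D4:**
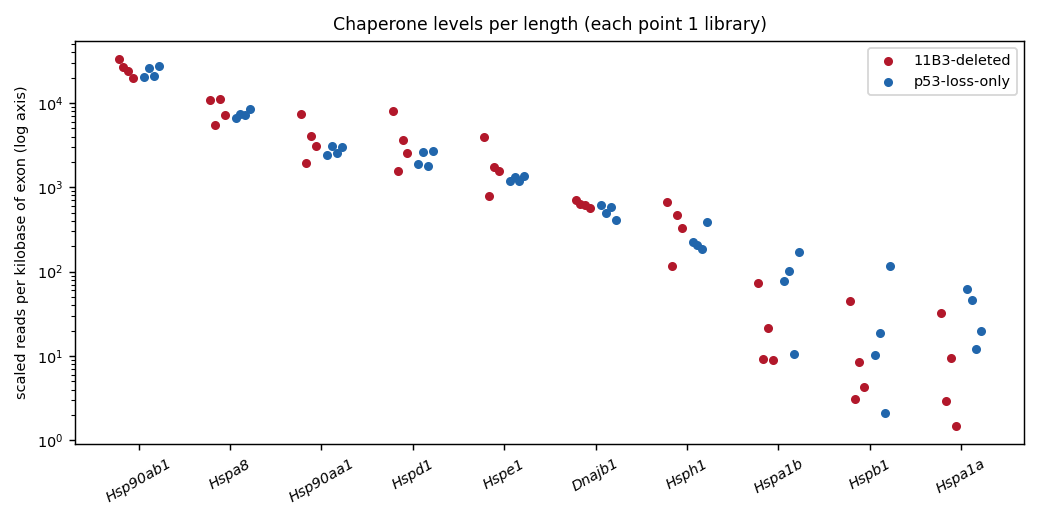
Scaled reads per kilobase of exon on a log axis for the 10 chaperones, ordered by their mean over 8 libraries, with 11B3-deleted libraries in red and p53-loss-only libraries in blue; each point is 1 library. Hsp90ab1 is at 19532 or above in every library, and Hspa1a, Hspa1b and Hspb1 are at 169 or below.

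Across libraries, several of the other chaperones moved together, while most pairs that include an inducible copy did not pass the test. Pearson's r of log2 values was computed for all 45 pairs of the 10 genes over 8 libraries, with exact permutation tests over all 40320 orders and Benjamini-Hochberg adjustment over the 45 pairs. By r, 11 pairs passed, all with r above 0, and by Spearman's rho 6 did. Without 11B3-deleted replicate 2, 6 pairs passed by r. With all 8 libraries, the 10 pairs among Hspa8, Hsp90aa1, Hspd1, Hspe1 and Hsph1 passed by r, a grouping made after the values were seen. The points of each pair share library, depth and size factor, and how often other pairs of genes reach such values was not computed.

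The closest pairs were HSP90 alpha with the mitochondrial chaperonin. Hsp90aa1 and Hspd1 had r = 0.993 (exact permutation p = 0.000248, adjusted p = 0.00409) and rho = 0.905 (exact permutation p = 0.00456, adjusted p = 0.0342). Without 11B3-deleted replicates 1 and 2, the libraries farthest from the Hsp90aa1 median, r was 0.971. Hspd1 and Hspe1 share 85 bases of the windows before their starts, at 1 of the Hspd1 starts. They had r = 0.973 (exact permutation p = 0.000273, adjusted p = 0.00409) and rho = 0.905 (exact permutation p = 0.00456, adjusted p = 0.0342). Without the same 2 libraries their r was 0.910. With group means removed, r was 0.992 for Hsp90aa1 and Hspd1 and 0.972 for Hspd1 and Hspe1.

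Of the 16 pairs that join Hspa1a or Hspa1b to another chaperone, 1 passed, Hspa1b with Hspb1. Its r was 0.894 (exact permutation p = 0.00117, adjusted p = 0.00765) and its rho was 0.833 (exact permutation p = 0.0154, adjusted p = 0.0769), so that it passed by r and not by rho. Without 11B3-deleted replicate 4 and p53-loss-only replicate 4 its r was 0.862, and with group means removed it was 0.931. This r rests in part on few reads. Hspb1 had 3, 9 and 5 reads in 11B3-deleted replicates 2, 3 and 4, and 2 reads in p53-loss-only replicate 3. The 2 inducible copies themselves had r = 0.826 (exact permutation p = 0.0139, adjusted p = 0.0523) and rho = 0.810 (exact permutation p = 0.0218, adjusted p = 0.0980), which missed the threshold. Their r without 11B3-deleted replicates 2 and 4 was 0.662. Hspa1a and Hspa8, the inducible and constitutive HSP70, had r = 0.256 (exact permutation p = 0.541, adjusted p = 0.609) and rho = 0.143 (exact permutation p = 0.752, adjusted p = 0.940), and Hspa1a was high where Hspa8 was not in p53-loss-only replicates 1 and 2. With group means removed, as a description, several of the pairs that did not pass had a higher r than over all libraries. It was 0.749 for Hspa1a and Hspd1 (0.272 over all), 0.721 for Hspa1a and Hsp90aa1 (0.277 over all), 0.754 for Hspa1b and Hspd1 (0.381 over all) and 0.678 for Hspa1b and Hsph1 (0.394 over all). The missed threshold therefore does not show that the inducible copies vary apart from the others within a genotype.

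**Figure D5:**
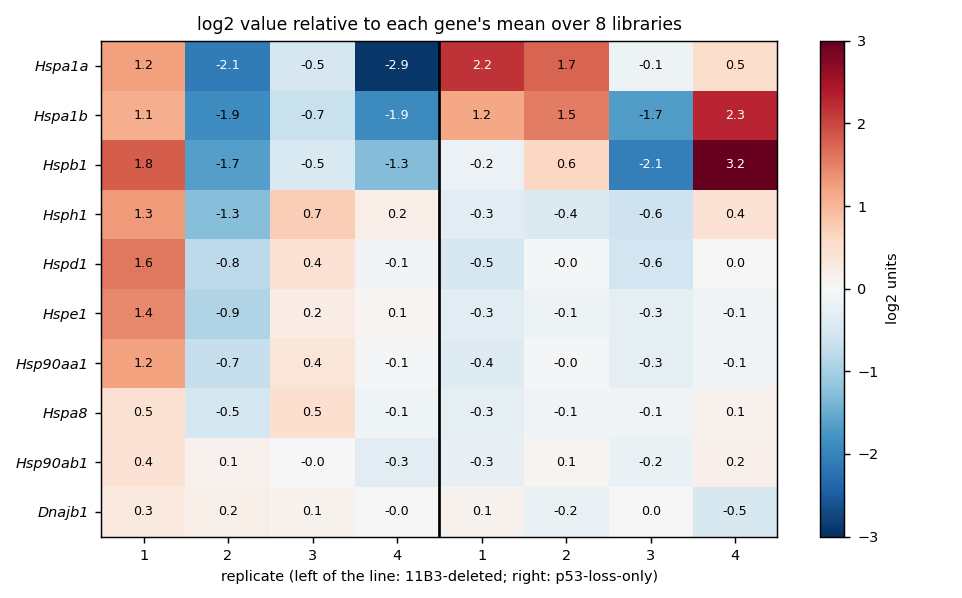
Log2 value of each chaperone relative to its own mean over 8 libraries (colour and number, log2 units), with replicates 1 to 4 of the 11B3-deleted group left of the line and of the p53-loss-only group right of it. Hspa1a runs between -2.9 and 2.2, whereas Dnajb1 and Hsp90ab1 stay within 0.5 of their means.

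Among all 8 libraries, 11B3-deleted replicate 1 held the highest value of 6 of the chaperones other than Hspa1a and Hspa1b, and 11B3-deleted replicate 2 the lowest value of 5 of them. Averaged over those 8 genes and centred on each gene's mean, the log2 level was 1.06, -0.69, 0.24 and -0.20 across the 11B3-deleted libraries, against -0.27, -0.03, -0.52 and 0.41 across the p53-loss-only libraries. The 8 genes count equally in this mean, although Hspb1 has few reads and spans 38.0-fold. Hspb1 was at 3.2 in p53-loss-only replicate 3 and at 121.3 in replicate 4, so the last 2 values rest in part on it. Markers of other marrow cells also differed between these libraries. The 12 erythroid markers, all with a higher 11B3-deleted mean and none at 0 reads throughout, summed to 13215 to 218881 in the 11B3-deleted libraries and to 2876 to 50797 in the p53-loss-only libraries. The highest erythroid sum was in 11B3-deleted replicate 1, and 13215 was that of 11B3-deleted replicate 2. The lowest myeloid sum of all 8 libraries, 303021, was also that of 11B3-deleted replicate 1. The 10 markers of marrow stroma and endothelium, also all higher in 11B3-deleted mean, summed to 2988 to 16763 in the 11B3-deleted libraries and to 5519 to 8659 in the p53-loss-only libraries, with the lowest sum in 11B3-deleted replicate 1 and the highest in 11B3-deleted replicate 2. The 10 B-cell markers, all with a higher 11B3-deleted mean, summed to 400.3 to 52413 in the 11B3-deleted libraries, the top value in replicate 3, and to 416.7 to 2191 in the p53-loss-only libraries. Sums of the 10 T and NK cell markers were 373.2 to 1346 in the 11B3-deleted libraries and 869.5 to 1309 in the p53-loss-only libraries. Sums of the 7 megakaryocyte markers were 395.5 to 2592 in the 11B3-deleted libraries and 716.7 to 1866 in the p53-loss-only libraries. The part of these cell types in the chaperone levels was not tested, and in bulk RNA fewer cells of a type cannot be told apart from less RNA per cell.

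Genes that control or assist the chaperones gave 0 calls with limma in every list. Of all 14679 genes tested, 7573 had a higher and 7106 a lower 11B3-deleted mean. Hsf1, the master regulator of the heat shock response, was at 2106.9, 1028.7, 2382.5 and 1769.9 across the 11B3-deleted libraries, against 1529.4, 1499.1, 1524.1 and 2820.8 across the p53-loss-only libraries. Its 11B3-deleted values lay within the p53-loss-only range apart from replicate 2, and its log2 difference was -0.03 (SE 0.31, 95% interval -0.73 to 0.67). Hsf2, a related factor, differed by -0.27 (SE 0.21), and Bag3, an HSP70 exchange factor that directs clients to autophagy, by -0.13 (SE 0.25). Of the 4 tested heat shock factors and regulators, 3 had a lower and 1 a higher 11B3-deleted mean, with a median log2 difference of -0.15 against 0.01 over all genes.

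Among 15 other cytosolic J-domain proteins, partners of HSP70, 12 had a higher and 3 a lower 11B3-deleted mean, with a median log2 difference of 0.12. At an unadjusted limma p under 0.05, 2 were higher and 1 was lower, where the shares over all tested genes were 1.18% higher and 2.38% lower. Dnaja4 was at 2092.2, 350.7, 408.1 and 289.4 across the 11B3-deleted libraries, against 194.2, 207.4, 43.8 and 17.0 across the p53-loss-only libraries. Every 11B3-deleted library exceeded every p53-loss-only library, a layout seen in 0.913% of all genes in this direction. The log2 difference was 2.88 (SE 0.92, 95% interval 0.80 to 4.95, limma adjusted p = 0.996). Dnaja2 likewise did not overlap (log2 difference 0.38, SE 0.17), whereas Dnajb5 differed by -0.66 (SE 0.26) with overlapping groups.

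The HSP90 co-chaperones had 11 of 14 tested members with a higher and 3 with a lower 11B3-deleted mean, and a median log2 difference of 0.14. Stip1, which hands clients from HSP70 to HSP90, was at 6863.5, 4653.1, 5018.9 and 4658.8 across the 11B3-deleted libraries, against 4597.8, 3762.4, 3891.4 and 4625.9 across the p53-loss-only libraries. The groups did not overlap, by a narrow margin, and the log2 difference was 0.32 (SE 0.17, limma adjusted p = 0.996). Stip1 was the only 1 of the 14 with this layout, seen in 0.913% of all genes in this direction. Tomm34 differed by 0.40 (SE 0.23) and Chordc1 by 0.36 (SE 0.35). Without 11B3-deleted replicate 1 the log2 difference was 0.18 for Stip1, 0.30 for Tomm34 and 0.14 for Chordc1. Without 11B3-deleted replicate 2 it was 0.37 for Stip1, 0.45 for Tomm34 and 0.72 for Chordc1.

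The CCT chaperonin, which folds actin and tubulin in the cytosol, and its partner prefoldin had 13 of 14 members with a higher 11B3-deleted mean, a median log2 difference of 0.12 and 0 at an unadjusted limma p under 0.05. Cct8, Cct2 and Cct4 differed by 0.33 (SE 0.23), 0.23 (SE 0.19) and 0.22 (SE 0.19). Without 11B3-deleted replicate 1 the log2 difference was 0.17 for Cct8, 0.24 for Cct2 and 0.07 for Cct4. Without 11B3-deleted replicate 2 it was 0.44 for Cct8, 0.20 for Cct2 and 0.33 for Cct4. Of 10 exchange and adaptor proteins of HSP70, 6 had a higher and 4 a lower 11B3-deleted mean (median 0.09), with Bag2 at 0.83 (SE 0.62), Bag4 at 0.21 (SE 0.16) and the ubiquitin ligase Stub1 at -0.38 (SE 0.24). Bag2 was at 1841.3 in 11B3-deleted replicate 1 and at 765.8 or below in every other library. Its log2 difference was 0.31 without 11B3-deleted replicate 1 and 1.29 without 11B3-deleted replicate 2. Other HSP70 and HSP110 genes split into 4 and 4 (median -0.02), with Hspa4l at 0.33 (SE 0.33), Hspa4 at 0.18 (SE 0.23) and Hspa1l at -0.32 (SE 0.36). Hspa1l neighbours Hspa1a and Hspa1b on the same chromosome.

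Compartment chaperones stood on either side of 0. Mitochondrial chaperones and proteases had 7 of 10 higher and 3 lower 11B3-deleted means (median 0.13). Clpx was at 0.35 (SE 0.25), Lonp1 at 0.14 (SE 0.21) and Grpel2 at -0.32 (SE 0.19). Without 11B3-deleted replicate 1, Clpx was at 0.15, Lonp1 at 0.0040 and Grpel2 at -0.28. Without 11B3-deleted replicate 2, Clpx was at 0.38, Lonp1 at 0.16 and Grpel2 at -0.27. Chaperones of the endoplasmic reticulum and genes of the unfolded protein response had 5 of 20 higher and 15 lower (median -0.14), with P4hb at -0.20 (SE 0.15), Xbp1 at -0.24 (SE 0.26) and Pdia3 at 0.20 (SE 0.23). No gene on these 2 lists reached an unadjusted limma p under 0.05.

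Of 10 further small heat-shock proteins and relatives on the list, 5 were tested, with 1 higher and 4 lower 11B3-deleted means (median -0.23). Hspb7 was at 2, 15, 1 and 1 across the 11B3-deleted libraries, against 6.8, 10.2, 280.6 and 19.1 across the p53-loss-only libraries. A single library, p53-loss-only replicate 3, held nearly all of its reads, and its log2 difference was -3.40 (SE 1.28, limma adjusted p = 0.996). Hspb11 and Hspb6 differed by 0.32 (SE 0.36) and -0.23 (SE 0.27).

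The genes whose centred log2 profile over the 8 libraries was nearest to that of Hspa1a were Hist1h2ac, Gm10382, Jun, Hist1h1d and Gm17591. Their root-mean-square differences from Hspa1a were 0.66, 0.75, 0.82, 0.87 and 0.87 in log2 units, all smaller than the 0.97 between Hspa1a and Hspa1b. Nearest to Hspa1b were Hist1h2ai (0.67), Hist1h3i (0.68), Hist1h1d (0.70), Hspb1 (0.76) and Ighv9-3 (0.80). Hist1h2ac, a histone H2A gene, was at 214.8, 69.9, 239.4 and 56.0 across the 11B3-deleted libraries, against 895.3, 631.3, 158.9 and 474.9 across the p53-loss-only libraries. These genes were picked for a layout like that of the inducible copies, so their likeness is a description and supports nothing further.

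Jun, an immediate-early gene of the AP-1 factor, was at 3065.6, 2668.7, 2632.6 and 814.9 across the 11B3-deleted libraries, against 22553.9, 12614.5, 3290.6 and 5974.0 across the p53-loss-only libraries, without overlap. The log2 difference of Jun was -2.08 (SE 0.62, limma adjusted p = 0.996, edgeR adjusted p = 0.996), and it passed with DESeq2 alone (adjusted p = 0.0364). Its partner Fos was at 1443.0, 1450.5, 1707.9 and 1415.7 across the 11B3-deleted libraries, against 18910.6, 7770.6, 8683.2 and 3237.2 across the p53-loss-only libraries, without overlap. The log2 difference of Fos was -2.42 (SE 0.44, limma adjusted p = 0.425, edgeR adjusted p = 0.427), and DESeq2 alone called it (adjusted p = 6.90e-06). Fosb, whose groups overlapped, had a limma log2 difference of -3.22 (SE 0.95, limma adjusted p = 0.996, edgeR adjusted p = 0.996) and was called by DESeq2 alone (adjusted p = 0.00380). Of 20 immediate-early genes, 19 had a lower 11B3-deleted mean (median log2 difference -0.59), against 7106 of all 14679 genes tested. In 3 of the 20 the groups did not overlap, all lower, against 1.23% of all genes in this direction. The summed values of the 20 were 37416 to 46912 in the 11B3-deleted libraries and 49014 to 111150 in the p53-loss-only libraries. The part of whatever moves these genes in the levels of Hspa1a and Hspa1b was not tested.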

How the data were processed

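Total RNA of 8 leukaemia samples was analysed from the authors' per-sample tables. STAR, HTSeq and DESeq, with the mouse build mm9, are listed without role or version per the submitters' processing notes. The deposited signal values are read counts divided by a size factor with 1 added, as the values show: dividing by each library's step gave whole reads for 100% of values (tolerance 0.02), and edgeR on those reads called 1 gene.

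Since the values are not counts, the test was limma with a mean-variance trend on log2 of the deposited value. Its added 1 served as pseudocount, which draws folds of low genes towards 0. The limma difference is still not always the smaller, since Hspa1a was at -2.15 with limma and -1.63 with edgeR. Groups came from the sample titles. Testing was two-sided and took genes at 10 or more in 4 or more libraries, with Benjamini-Hochberg adjustment at 0.05. Software was limma 3.58.1, DESeq2 1.42.0 and edgeR 4.0.16 under R 4.3.3. Procedures were tested on simulated data. Lengths and shared windows used the GENCODE annotation of GRCm38, and no coordinates of the reads' own build are given.

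The chaperones and lists were chosen with earlier results of these data known. Named genes are the 10 chaperones, Trp53, Hsf1, Hsf2, Bag3, Fos, Jun, the 3 genes of smallest p per list, and the 5 nearest in pattern to each inducible copy. Every pair of libraries of a group differed beyond counting noise (smallest chi-square 86.8 per degree of freedom). Alternatives were edgeR, DESeq2, TMM scaling, other filters, another constant, sample weights, a replicate block, each library left out and transcript length.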

Additional observations from a re-analysis of the deposited data

Results flagged for a closer look

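Dixon's rule for a sample far from the others was applied on the log2 scale to 102 groups of 4 libraries, and 6 were flagged, where chance flags about 1 in 20. The within-library level of Hspa1a and Hspa1b against the other 8 chaperones was flagged in the p53-loss-only group, where replicate 3 was at -5.20 (-5.203 before rounding) and the other 3 libraries were between -3.13 and -2.87. In the same library Dnajb5 was the highest of the p53-loss-only group, at 707.2. Hsf1 was the highest of its group in p53-loss-only replicate 4, at 2820.8, the library in which Hspa1b and Hspb1 were also at their highest. In the 11B3-deleted group Fos was highest in replicate 3, at 1707.9, Jun was lowest in replicate 4, at 814.9, and the endoplasmic reticulum isomerase P4hb was lowest in replicate 1, at 26835.8.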

How the results depend on the processing

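The count of chaperones called stayed at 0 of 10 under every alternative run. Their directions were kept in 79 of 79 values from the other tools, filters and scalings, and in 75 values from leaving out a library. The single exception was Hsp90ab1, at -0.00808 without 11B3-deleted replicate 1 (range -0.00808 to 0.25). Hspb1 was not tested under the filter of 50 or in 4 of the fits without a library. Over all genes the 2 calls became 1 with edgeR, 58 with DESeq2, 1 with the filter of 50, 1 with the constant of 5 and 0 with sample weights, and 0 to 1 when single libraries were omitted. A block for replicate number gave 0 calls. Same-numbered libraries had correlations of deviations between -0.414 and -0.03. No pairing by number was seen, although such correlations cannot exclude a shared batch. Hsf1 turned positive with sample weights (0.23), when 11B3-deleted replicate 2 was omitted (0.23) and when p53-loss-only replicate 4 was omitted (0.20), in a range of -0.18 to 0.23. Hspa4l was at -0.0226 without 11B3-deleted replicate 1 (range -0.0226 to 0.53). The cause of these turns was not tested. The score of inducible against other chaperones ranged from -2.67 to -1.80 with libraries omitted. Over the longest transcript in place of all exons, the level per kilobase was 10954 for Hspa8 and 29459 for Hsp90ab1. Pairs of chaperones passing by r numbered 6 without 11B3-deleted replicate 2, and 6 to 11 over all omissions. Few reads of Hspa1a, Hspa1b and Hspb1 limit what can be read from single libraries.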
